A study of Mus musculus with 17 samples.

Results

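The miR mmu-miR-210 (here miR-210) was followed through mouse kidneys before and after ischemia reperfusion injury (IRI). It was 1 of the 569 mature mouse miRs on the array and was taken by name, by a rule that uses no measured value. Its data were 1 processed value in each of 17 samples and the 6 spots that each array carried for it.

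The kidneys came from C57/BL6 mice 10 to 12 weeks old, which the labels call female and the study's methods male. Animals were naïve, had sham surgery, or underwent 30 min of warm ischemia, which the methods describe as unilateral, and operated kidneys were taken on 8 days, namely days 1, 3, 5 and 7 and, later, days 10, 14, 21 and 30. Each sample was RNA pooled from 3 mice, with 1 pool per arm and day and 1 naïve pool. A single day therefore had no replicate, and the p-values below measure the spread between days, which holds both time and error. On 8 arrays the IRI pool was read in the dye Cy3 and the sham pool of the same day in Cy5, without a dye swap, so that injury and dye cannot be told apart in a mean ratio. The naïve pool was read alone in Cy3 on the 9th array, so naïve and sham differed in dye.

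MiRs are short RNAs that bind messenger RNAs, mostly through the bases at their 5′ end called the seed, and lower their translation or stability. MiR-210 is the miR best known as a target of hypoxia-inducible factor, the transcription factor that accumulates when oxygen falls, and it rises in many cell types kept in low oxygen. Among its known targets are ISCU, which builds the iron-sulfur clusters of the respiratory chain, and the ephrin EFNA3, and it has been studied in the ischemic kidney and in renal carcinoma. Day 1 is the sample of this series nearest to the ischemia, and whether miR-210 differed there was the question put to the data.

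The mature sequence and its precursor are shown because they identify the probe target and its seed. The 22 bases lie on the minus strand at chr7:141221407-141221428 (GRCm38.p6), inside the hairpin Mir210 at chr7:141221384-141221493. Sequences and positions are from RefSeq. In the mature sequence capitals mark the seed, bases 2 to 8, and in the hairpin they mark mature miR-210.
mmu-miR-210-3p: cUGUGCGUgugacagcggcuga
Mir210 hairpin: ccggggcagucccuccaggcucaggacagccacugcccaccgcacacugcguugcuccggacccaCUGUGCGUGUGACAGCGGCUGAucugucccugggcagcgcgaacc

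No annotated gene overlaps the hairpin in this table. Rassf7 ends 2726 bases before it and Lmntd2 5867 bases before it, and the nearest genes on the other side, Gm51460 and Phrf1, start 6713 and 6984 bases after it. The opposite arm of the hairpin, miR-210-5p, was not among the array's miRs.

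The seed of miR-210 was its own. Among 1679 mature mouse miRs of the RefSeq table, 0 others carried the same bases 2 to 8, and 0 others the shorter seed of bases 2 to 7. The 3 array miRs closest in sequence are shown, as the scanner files give them, to let the distance be seen, with their seeds in capitals.
mmu-miR-124*: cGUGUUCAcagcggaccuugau
mmu-miR-130b: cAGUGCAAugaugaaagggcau
mmu-miR-25: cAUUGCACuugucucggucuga
Each was 9 single-base edits away, so no array miR was a near copy of miR-210. MiR-210 was rich in G and C, which made up 63.6% of its bases against a median of 45.5% over the array's miRs, and 89.3% of those had a lower share.

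The channels were checked before miR-210 was read. The deposited processed values correlated with the scanner intensity of their own channel at r between 0.981 and 0.9996 over miRs, and with the other channel of the array at 0.834 to 0.956. The kidney epithelial miRs miR-192, miR-194, miR-30a and miR-200b and the endothelial miR-126-3p were above the empty spots in all 17 samples. Of the defining kidney list, miR-204 was above them in 7 of 8 IRI, 4 of 8 sham and the naïve sample. Of the leukocyte miRs, which were not tested between the arms, the processed values of miR-155 lay between 456 and 1905 in IRI and between 138 and 616 in sham, those of miR-223 between 32 and 253 and between 14 and 28, and those of miR-150 between 208 and 1142 and between 70 and 305. MiR-142-3p and miR-142-5p, also of leukocytes, stayed at or below 24 in every sample, and the part of leukocytes in the miR-210 values was not tested. The liver miR miR-122 read 3571 in sham on day 30 and between 16 and 36 in the other samples. In such whole-kidney RNA, fewer cells of a type and less RNA per cell cannot be told apart.

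The first comparison asked in which samples miR-210 stood above the empty spots. Each channel held 250 spots without a probe, and a miR was called above them when the mean of its 6 spots exceeded their median by more than 3 median absolute deviations (MADs). By that rule miR-210 was above the empty spots in 12 of 17 samples, on days 1, 3, 5, 7, 10 and 21 after IRI, on days 1, 5, 7, 10 and 14 after sham surgery, and in the naïve pool. It was not above them on days 14 and 30 after IRI or on days 3, 21 and 30 after sham surgery. Of its 102 spots, 63 lay more than 3 MADs above the empty spots and 5 lay below their median.

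In IRI the raw spot intensities sat a short way above the background of their own array. On day 1 the 6 spots averaged 278 ± 16.1 (SD over spots) against an empty-spot median of 232, which was 5.98 MADs above it, and 78.2% of all miRs passed the same line. On day 3 the mean was 361 ± 21.5 against 301, or 3.62 MADs, with 48.3% of miRs passing. Day 1 thus gave the larger distance of these early days, with all 6 spots over the line, while 4 of 6 were over it on day 3.

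On day 5 after IRI the mean was 430.5 ± 17.5 against 390.2, only 3.12 MADs, and 60.5% of miRs passed. Day 7 gave 307 ± 13.0 against 266, or 5.39 MADs, on an array where 94.9% of all miRs passed. Day 10 gave the brightest spots of the arm, 727 ± 43.9 against 516, but the empty spots of that channel were also the most spread, and the distance was 3.82 MADs with 85.2% of miRs passing. Being above the empty spots on days 1, 5, 7 and 10 of IRI was therefore shared by most of the array and was not particular to miR-210.

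The late IRI days followed. Day 14 gave 223 ± 45.4 against 186, or 1.04 MADs, with 27.1% of miRs passing. Day 21 gave 239 ± 10.1 against 203, or 3.61 MADs, with 42.5% passing. Day 30 gave 232 ± 28.1 against 207, or 1.45 MADs, with 32.5% passing. Of these late samples only day 21 was over the line, and on that day miR-210 was among a minority of miRs that were.

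The spots were also read by position on the array. MiR-210 had 3 spots in array row 34 and 3 in row 98. On day 14 of IRI the row means were 255 and 191, and on day 30 they were 257 and 206. Days of IRI over the line had gaps too, with 703 and 751 on day 10 and 372 and 350.3 on day 3, and sham on day 3, under the line, had 40.2 and 41.8. When each spot was set against its 12 nearest empty spots, a rule added after these values were seen, days 14 and 30 of IRI passed, and 14 of 17 samples were above background in place of 12.

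In sham the Cy5 channel was dimmer, and miR-210 exceeded the empty spots by a few intensity units. On day 1 the spots averaged 44.6 ± 1.66 against 35.3, or 6.33 MADs, with 53.6% of miRs passing. On day 3 they averaged 41.0 ± 1.46 against 37.7, or 1.78 MADs, with 32.9% passing. By this measure day 1 of sham was the farthest from background of the 17 samples, but against the nearest empty spots it lay 8.56 MADs out, behind day 10 of IRI at 13.4 and day 1 of IRI at 9.61.

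The middle days of sham were all above the line. Day 5 gave 41.2 ± 2.66 against 36.3, or 3.69 MADs, with 42.2% of miRs passing. Day 7 gave 41.7 ± 1.37 against 36.9, or 3.26 MADs, with 36.7% passing. Day 10 gave 45.9 ± 2.23 against 37.3, or 5.11 MADs, with 65.4% passing. On days 5 and 7 miR-210 stood with the minority of miRs that passed, and on day 10, like day 1 of sham, with the majority. Day 7 of sham was not above the 95th percentile of the empty spots, a line that day 21 of sham passed in its place.

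After sham surgery miR-210 reached the line once more, on day 14, with 44.4 ± 1.83 against 38.2, or 4.26 MADs, where 40.8% of miRs passed. Day 21 gave 36.8 ± 1.61 against 33.0, or 2.85 MADs, just under the line, with 35.5% passing. Day 30 gave 45.8 ± 3.43 against 43.9, or 0.80 MADs, with 31.5% passing. That last sample, in which miR-210 came closest to the empty spots, was also the sample with the high miR-122 reading, and the part of either in the other was not tested.

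The naïve kidneys gave 577 ± 17.1 against 511, or 5.62 MADs, with 91% of miRs passing. Naïve, day 1 of IRI and day 1 of sham were therefore at like distances from their empty spots. Under a stricter line of 5 MADs the count fell from 12 to 5 samples, namely these 3, day 7 of IRI and day 10 of sham.

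**Figure D1:**
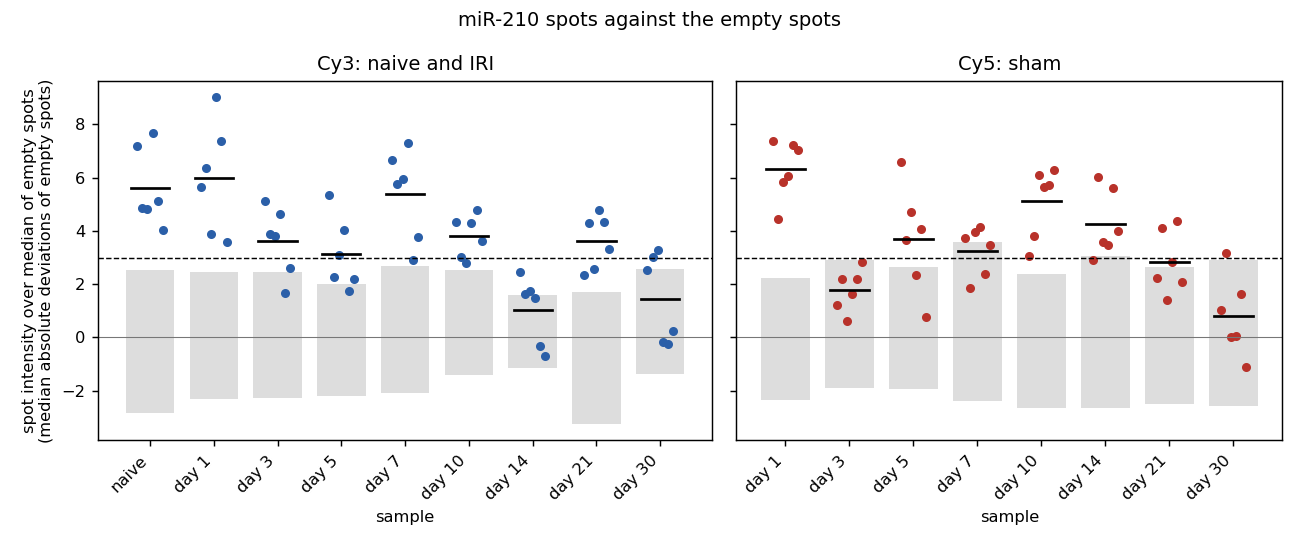
Intensity of the 6 spots of miR-210 (points) and their mean (black bar) in each sample, as the distance from the median of the 250 empty spots of the same channel in MADs of those spots. Grey boxes span the 5th to 95th percentile of the empty spots and the dashed line is 3 MADs; the means of IRI days 14 and 30 and of sham days 3, 21 and 30 lie under it.

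The processed values deposited by the authors gave the same low level on their own linear scale. In the order of the 8 days, from 1 to 30, they were 28, 20, 11, 20, 30, 22, 19 and 23 in IRI. In sham they were 24, 18, 22, 21, 28, 21, 20 and 19 in the same order, and naïve read 21. Both arms had a mean of 21.6, with an SD over days of 5.83 in IRI and 3.16 in sham (n = 8 each), and their values overlapped.

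Ordered by processed value, day 10 of IRI came first, followed by day 1 of IRI and day 10 of sham at an equal 28, and then day 1 of sham. Days 1 and 10 were thus the highest of both arms. Day 5 of IRI, at 11, came last and was the only value under the median over all miRs of its sample, 18. Those medians were between 17 and 20 in the 17 samples, so most values of miR-210 were within a few units of a typical miR of its array. Each value stands alone, without an error, and neighbours in this order cannot be said to differ.

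**Figure D2:**
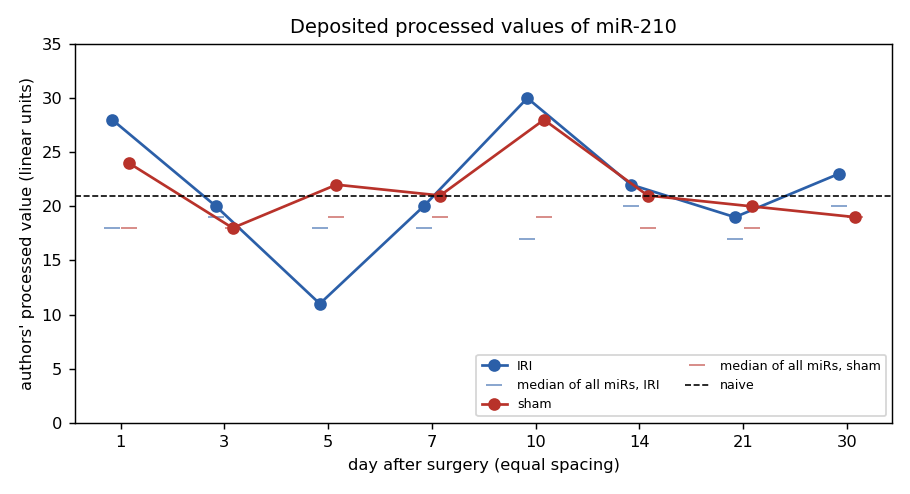
Deposited processed value of miR-210 (linear units) by day after surgery, days evenly spaced, for IRI (blue) and sham (red), with naïve as a dashed line at 21. Short bars give the median over all miRs of each sample, 17 to 20, and the points of both arms lie between 11 and 30.

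For tests the scanner intensities were normalized, which set miR-210 on a narrow scale. The correction added an offset of 50 to every spot, so values near background are pulled together and differences of a weak miR are understated. On this scale IRI ranged from 91.7 to 102 with a mean of 97.7 ± 4.50 (SD, n = 8), sham from 94.3 to 107 with a mean of 101 ± 3.48 (SD, n = 8), and naïve was 99.8. No sample reached 200, the intensity below which the study's methods set values to a floor. The study applied that number to its own values, so it is not the same cut on this scale. Since miR-210 did not reach it, its values come from a fit over all 569 miRs and not over the 162 that did.

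The samples overlapped throughout. Day 10 of sham was highest and day 5 of IRI lowest, a difference of 0.22 in log2 intensity with a standard error over spots of 0.082. Of the 16 pairs of neighbours in the order of the 17 samples, 1 differed by more than 2 standard errors of its spots.

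On this scale, which pulls values near background together, IRI and sham read almost the same within each array. The log2 IRI/sham ratio began at 0.0063 on day 1 and -0.0032 on day 3. It then read -0.11, -0.060, -0.068, -0.095, -0.025 and -0.038 in the order of the later days, from 5 to 30. It was above 0 on 1 day, day 1, and below 0 on the other 7. This tally depended on the processing, with 5 of 8 days above 0 in the processed values, 3 after median scaling, 2 after plain subtraction and 0 against the nearest empty spots. On days 3, 14, 21 and 30 miR-210 was not above the empty spots in 1 or both channels by the rule of 3 MADs. The standard error over the 6 spots of a day was between 0.038 and 0.23, and on 0 of 8 days did the ratio exceed 2 of them. On all 8 days it lay inside the range from the 5th to the 95th percentile of all miRs. Other processing gave wider ratios on some days. In the processed values day 5 read -0.94. On day 14 the ratio was -0.59 after plain subtraction, -1.09 against the nearest empty spots and 0.064 in the processed values.

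Over the 8 days the mean log2 ratio was -0.049 (SE 0.016), and the limma adjusted p was 0.0649, short of the threshold of 0.05. The size of this mean rested on the processing, with -0.0044 after median scaling, -0.037 in the processed values, -0.20 after plain subtraction and -0.32 against the nearest empty spots, none of them past the threshold. In that test 17.6% of all miRs were called, 51 higher and 49 lower in IRI, and the deposited processed values gave 49 higher and 31 lower. For miR-210 alone an exact two-sided sign-flip permutation over the 8 days gave p = 0.0234, where 0.00781 was the smallest possible, but this p is not adjusted for the other miRs. With dye and injury in the same channels, a ratio of this size could not be told apart from a dye difference.

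The comparison of day 1 with the later days does not depend on a dye bias that is equal on all arrays. The log2 ratio of day 1 was above the mean of days 3 to 30 by 0.063 (SE 0.046, 95% confidence interval -0.044 to 0.17), with a limma adjusted p of 0.961. On this scale day 1 was the highest of the 8 ratios, with an exact permutation p of 0.25, whereas day 30 was higher in the processed values, at 0.26 against 0.21, and day 21 was level with it after median scaling, at 0.066 and 0.066. With a single day on one side this test cannot give less than 0.125. In this test 1.23% of all miRs were called, and miR-210 was not among them.

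Day 1 was then taken within each arm. In IRI the log2 intensity of day 1 was 0.073 above the mean of the later days (95% confidence interval -0.11 to 0.26, limma adjusted p = 0.904), in a test that called 0.879% of miRs. In sham it was 0.0096 above them (95% confidence interval -0.15 to 0.17, limma adjusted p = 0.990), in a test that called 0.176% of miRs. Day 1 stood 2nd of the 8 IRI days and 4th of the 8 sham days, with exact permutation p-values of 0.5 and 0.75. Neither arm thus set day 1 apart beyond the spread of its other days.

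Scales that compress less gave larger differences with wider intervals. The later IRI days in these means include days 14 and 30, on which miR-210 was not above the empty spots by the rule of 3 MADs. By the processed values, on the log2(value + 1) scale, IRI on day 1 was 1.38-fold the mean of the later IRI days, with a 95% confidence interval from 0.683-fold to 2.79-fold. By plain subtraction of the empty-spot median it was 1.23-fold, with an interval from 0.570-fold to 2.66-fold. For the IRI/sham ratio the same settings gave 1.22-fold (0.540-fold to 2.75-fold) and 1.25-fold (0.800-fold to 1.94-fold). Against the nearest empty spots, the setting added after the data were seen, the interval for IRI reached 3.45-fold. No difference was shown on day 1, but a rise within these intervals was not detectable with 1 pool and a signal so near the empty spots.

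**Figure D3:**
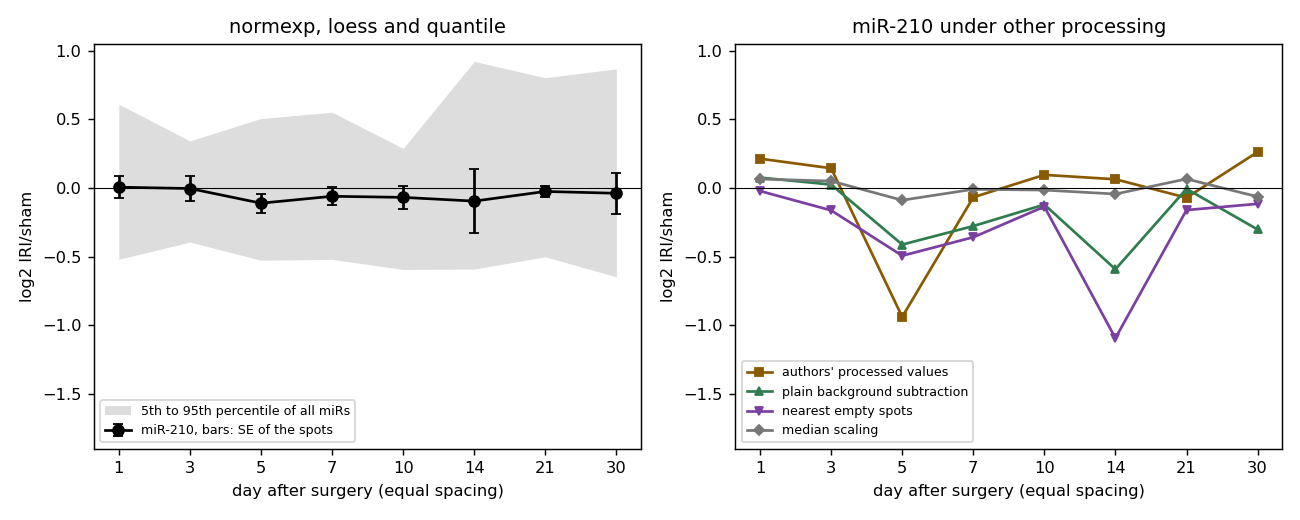
Log2 IRI/sham ratio of miR-210 by day after surgery, days evenly spaced. On the left, normalized values with the standard error over 6 spots as bars and the 5th to 95th percentile of all miRs in grey, with all 8 ratios between -0.11 and 0.0063; on the right, the same ratio under 4 other ways of processing, among which day 14 reads from -1.09 to 0.064.

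**Figure D4:**
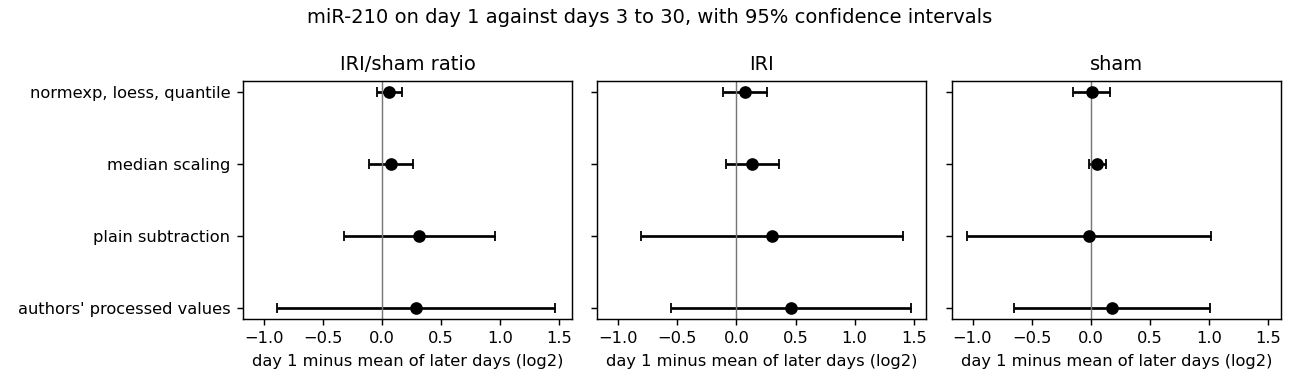
Day 1 minus the mean of days 3 to 30 for miR-210 (log2) in the IRI/sham ratio, in IRI and in sham, under 4 ways of processing. Points are estimates and bars 95% confidence intervals from limma, and every interval includes 0.

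For the change over time, the log2 ratio had a slope of -0.0099 per doubling of the day (SE 0.011), with a limma adjusted p of 0.798. The slope was -0.068 after plain subtraction and -0.053 against the nearest empty spots, with limma adjusted p-values of 0.701 and 0.872, and its sign turned in the processed values, at 0.015, and without day 1, at 0.00092. An exact permutation over all orders of the days gave p = 0.358. In this test 0% of miRs were called by limma, with 51 of 569 at an unadjusted p under 0.05.

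Against the naïve kidneys, which share the dye Cy3 with IRI, the mean log2 intensity of IRI differed by -0.032 (95% confidence interval -0.21 to 0.15), with a limma adjusted p of 0.872. The difference was -0.12 against the nearest empty spots and turned to 0.055 with the median of the spots. Naïve stood 5th of the 9 Cy3 samples, and the exact permutation p was 0.889. Sham, in the other dye, read 94.3 to 107 around the naïve value of 99.8. The test called 21.6% of all miRs, 39 higher and 84 lower in IRI, but this split rested on the scaling, with 46 higher and 0 lower after median scaling and 18 higher and 11 lower in the processed values, whose median over all miRs shifted by 0.20 in log2.

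Other miRs known from cultured cells in low oxygen were read beside miR-210. The list held 14 miRs, all on the array, and in the mean ratio limma called 3 of them higher and 2 lower in IRI, or 35.7% against 17.6% of all miRs, while the others did not pass. Of the 14 miRs 13 reached an intensity of 200. In a separate fit over the 162 miRs that did, with its own adjustment, 36.4% were called. The share of the list in that fit was not computed, so the list cannot be said to be called more often than brighter miRs. The median of their mean log2 ratios was 0.095, against 0.00081 over all miRs. The list was not tested as a set, and no difference between its members and miR-210 was tested. It was drawn up with earlier results of these data known, so its share of calls is not independent evidence.

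MiR-21, which is known for its rise in injured and fibrosing kidney, was the most changed of the list in the mean IRI/sham ratio. Its log2 ratios, in the order of the 8 days, were 1.98, 1.87, 2.71, 1.80, 3.37, 3.03, 2.62 and 2.68. The mean was 2.51 (SE 0.19) with a limma adjusted p of 0.000496, and no day came near 0. The study had already named miR-21 from such samples, so its direction here is not independent evidence.

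MiR-27a, a member of the miR-23, miR-27 and miR-24 clusters, had a mean log2 ratio of 0.80 (SE 0.18, limma adjusted p = 0.0257) and was above 0 on each day, from 0.077 on day 3 to 1.95 on day 30. It was no longer called when day 7, 10, 14 or 21 was left out, with adjusted p-values between 0.0509 and 0.0647, or after median scaling.

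The pair miR-103 and miR-107, near-identical miRs known to lower Dicer, fell in IRI. Their mean log2 ratios were -0.58 (SE 0.15, limma adjusted p = 0.0379) and -0.61 (SE 0.16, limma adjusted p = 0.0363). Both were close to 0 on day 1, at -0.068 and -0.056, and above 0 on day 5, at 0.23 and 0.19. Probes for such similar miRs may read each other, so they are not counted as separate results, and both calls were lost when day 3, 7, 10, 14, 21 or 30 was left out, after median scaling and without the block for the array.

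MiR-181c resembled miR-210 in level, between 84.3 and 109 in all samples and never at 200, and its mean log2 ratio was 0.053 (SE 0.015, limma adjusted p = 0.0478). A ratio of about the size of that of miR-210, with the other sign, was thus called. It was lost under each of the 15 alternatives that gave it a value.

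Against the naïve pool limma called 5 of the 14 higher in IRI and 0 lower, a share of 35.7% against 21.6% of all miRs and 50% of the 162 brighter ones. The log2 differences were 3.70 for miR-27a, 3.62 for miR-21 and 3.53 for miR-26b, and 1.62 for miR-23a and 1.38 for miR-27b, whose calls were lost in the processed values. The sizes rested on the scaling, with 4.64, 7.15, 6.50, 5.35 and 4.54 in the same order of miRs after median scaling and 2.24 for miR-27a in the processed values. All 5 share 1 naïve pool, read alone on its array, so these calls hold no spread between naïve pools. The share of the brighter miRs comes from a separate fit over them, in which that of the list was not computed.

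On day 1 itself the largest log2 ratios of the list were those of miR-21 at 1.98, miR-27a at 0.85 and miR-181a at 0.49. The smallest were those of miR-26a at -0.43, miR-24 at -0.17 and miR-26b at -0.13. MiR-210, at 0.0063, was between them. Of the 14 miRs, 0 were called by limma in the comparison of day 1 with later days, where 0 had an unadjusted p under 0.05, and 0 within IRI, where 2 had.

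**Figure D5:**
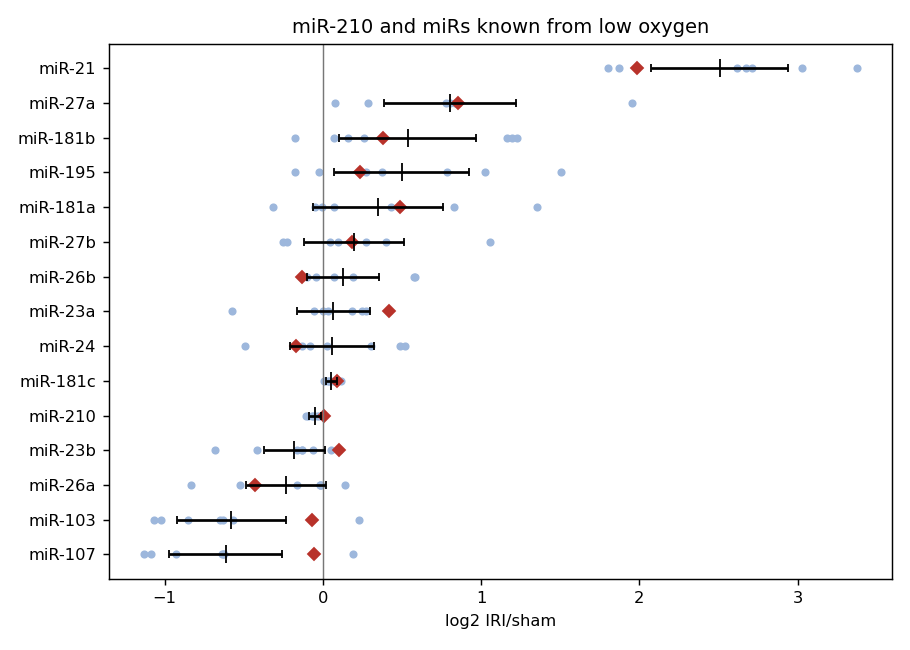
Log2 IRI/sham ratio of miR-210 and of the 14 miRs known from low oxygen. Small points are days, red diamonds day 1, and black bars the mean with its 95% confidence interval from limma; miR-21 lies at 2.51, miR-103 and miR-107 near -0.6, and miR-210 at -0.049.

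The miRs whose pattern was most like that of miR-210 were sought among the 162 that reached an intensity of 200. Over the 8 daily log2 ratios the closest were miR-22 at r = 0.71, miR-455 at 0.69, miR-126-3p at 0.68, miR-128 at 0.63 and miR-30a* at 0.62. Over the log2 intensities of the 8 IRI samples they were miR-126-3p at 0.85, miR-483 at 0.75, miR-200c at 0.73, miR-187 at 0.71 and miR-455 at 0.67. MiR-455 and miR-126-3p, the endothelial miR, stood in both lists. These are the highest of 162 correlations over 8 points that share their arrays and normalization, and under other ways of processing they ranged from -0.082 to 0.85 for ratios and from 0.068 to 0.86 for intensities.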

How the data were processed

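The scanner intensity deposited for each spot of the 9 arrays was its mean, neither corrected for background nor normalized. A table of processed intensity values per miR and sample was also deposited by the authors, and how it was made is not stated in the labels or methods. Commas that group digits in the scanner files were removed, and 0 per-sample columns were left unmapped. The scanner columns of day 5 are headed with letters and were taken as IRI and sham because the processed values of those samples follow them.

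Background was corrected with normexp (limma 3.58.1 in R 4.3.3, offset 50) on all spots of a channel. The 6 spots of a miR were averaged and put on the log2 scale. Channels were normalized by loess (span 0.3, control probes at weight 0), and array means by quantiles together with naïve. Log2 IRI/sham ratios were fitted with limma over 569 miRs with Benjamini-Hochberg adjustment at 0.05, since miR-210 did not reach 200. The ratio within an array is a block by day, because both pools of a day were read on 1 array, and IRI and sham deviations of a day correlated at r = -0.057 to 0.71 over miRs. MiR-210 alone was also tested by exact permutation. Scripts were tested on simulated data. Day 10, absent from the study's own analysis, was kept. Of the array's miR sequences, 462 of 569 were found among the mature miRs of the RefSeq table. Tables and plots were made in Python 3.11.15.

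MiR-210, the miRs known from low oxygen and the markers were chosen with earlier results of these data known. The miRs named were miR-210, the members of the low-oxygen list called in the mean ratio or against naïve and its 3 largest and 3 smallest ratios on day 1, the 5 miRs most correlated with miR-210 in each of 2 measures, and its 3 nearest sequences. Markers of blood, muscle and brain were also read. The erythroid miR-451 and miR-486 were above the empty spots in all 17 samples and miR-144 in 3 of 8 IRI, 0 of 8 sham and the naïve sample. Of muscle, miR-1 was above them in 7 of 8 IRI and 4 of 8 sham samples, miR-133a in 4 and 2, and miR-206 in 6 and 2. Of brain, miR-124 was above them in 5 and 3, and miR-9 in 5 and 1.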

Additional observations from a re-analysis of the deposited data

Results flagged for a closer look

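Of the 8 sets of miR-210 values examined for a sample far from its group, 2 held one, and chance alone marks about 1 in 20 such sets. The signal over the empty spots, in raw intensity units, was 211 on day 10 of IRI, far above the other 7 IRI samples. The empty spots of that channel had the highest median of the IRI arm, 516, and the distance of miR-210 was 3.82 MADs, within the range of the other days. Against the nearest empty spots the sample still stood apart, at 13.4 MADs with a signal of 184, while the other 16 samples lay between 0.52 and 9.61 MADs and the other IRI signals between 16.3 and 47.1.

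The log2 IRI/sham ratio of the deposited processed values was -0.94 on day 5, from values of 11 in IRI and 22 in sham, while the other 7 days lay between -0.070 and 0.26. The ratio of the normalized scanner values on that day was -0.11, and that after plain subtraction was -0.41. The cause of the low processed value was not tested.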

How the results depend on the processing

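None of the 6 tests of miR-210 passed an adjusted p of 0.05 under any of 85 alternative values, the lowest adjusted p being 0.0601, and 79 kept their direction. The exceptions were values near 0. The slope was 0.015 with the processed values and 0.00092 without day 1. Day 1 against later days in sham was -0.015 after plain subtraction, -0.040 against the nearest empty spots, a setting added after the data were seen, and -0.0065 without day 30. IRI against naïve was 0.055 with the median of the spots. Leaving out a single day put the mean ratio between -0.057 and -0.040, the slope between -0.015 and 0.00092, day 1 against later days between 0.054 and 0.072 in the ratio, between 0.060 and 0.086 in IRI and between -0.0065 and 0.023 in sham, and IRI against naïve between -0.042 and -0.019. Without the pairing of both pools on an array (no replicate block) the mean ratio stayed -0.049 with an adjusted p of 0.501, and the slope and the day 1 difference had adjusted p-values of 0.999 and 0.999. Samples above the empty spots numbered 13 at 2 MADs, 5 at 5 MADs, 12 at the 95th percentile, where day 21 of sham replaced day 7, and 11 with the median of the spots, where day 5 of IRI was lost. A floor of 200, and fits over the 162 or 100 brighter miRs, gave no value, since miR-210 does not reach them.

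The count of all miRs called for the mean ratio, 100, became 64 with an intensity trend and robust variance together, 30 without the block, 31 to 79 with a day left out, 35 with the floor, and 59 and 40 in the fits over brighter miRs. Against naïve, 123 became 29 with the processed values, 46 with median scaling, 54 with the floor, and 81 and 47 over brighter miRs. For the ratio of day 1, 7 became 0 to 6 under other settings and 3 to 8 with a day left out. In IRI on day 1, 5 became 2 to 9, in sham 1 became 0 to 5, and for the slope 0 became 0 to 6. Of the listed miRs, miR-21 was called under all 18 alternatives, miR-27a under 13, miR-107 under 10, miR-103 under 9 and miR-181c under 0 of 15. The precision is limited by the signal, a few MADs over the empty spots, and by 1 pool per arm and day.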
